A study of Mus musculus with 4 samples.

Results

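Wnt proteins are secreted, lipid-modified signals, and the genes described here encode the proteins that make up, receive, restrain and carry out Wnt signalling in mouse embryonic fibroblasts (MEFs). These are connective tissue cells taken straight from embryos, and they stop dividing after some passages in culture. The genes were chosen by symbol for their textbook place in the pathway, with earlier results of these data known. The set lists 49 genes, and 48 of them had at least 1 array probe listed under a mouse RefSeq transcript, for 88 probes in all, out of 17466 named genes and 43553 probes on the array. Fzd10 matched no probe and was not analysed here. The genes fall into 6 roles by textbook function: 12 ligands, 14 receptors and coreceptors, 10 antagonists (with Kremen1, the membrane partner of the Dkk proteins), 4 genes of the R-spondin branch, 4 cytoplasmic regulators and 5 nuclear effectors.

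The study compared cells at passage 7, which stood at the onset of replicative senescence, a durable halt of division after serial passaging, with cells at passage 2, which were growing. Both passages carry no added agent in the labels, no genotype, strain, embryonic age or sex of the embryos is given in the sources used here, and all cells were kept in the same serum-containing medium. The labels name 3 independent cultures and say that their RNA was pooled before the arrays, and each passage was read on 2 arrays of 1 colour. Whether the 2 arrays of each passage hold separate cultures or repeat 1 pool is thus not settled, so a p-value here covers array-to-array spread and perhaps nothing more. The 4 arrays shared a slide and a scan, where position and passage cannot be told apart.

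Wnt ligands bind Frizzled receptors and the coreceptors Lrp5 or Lrp6, which stops a cytoplasmic complex built on Axin from destroying beta-catenin, and beta-catenin then enters the nucleus and switches on genes together with factors of the TCF and LEF family. Other ligands act through Ror1 and Ror2 and the planar polarity and calcium branches without beta-catenin. Secreted Frizzled-related proteins, Wif1 and Dkk proteins damp the signal outside the cell, while R-spondins amplify it by binding Lgr receptors and sparing Frizzleds from removal. In fibroblasts and other mesenchymal cells the pathway is known for its part in proliferation and in the choice between cartilage, bone and fat.

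Levels are given for each array as log2 of the processed signal relative to that array's 75th percentile, so that 0 is the 75th percentile itself, and each change is passage 7 minus passage 2 on the log2 scale. Genes were called changed at an adjusted p under 0.05 in limma together with a change of at least 2-fold. Of the 46 Wnt genes tested, 9 fell and none rose at passage 7, against 9.42% of all 13847 genes tested called lower and 9.99% called higher. The share lower among the Wnt genes was 19.6%. Of the 9, Wif1, Wnt6 and Dkk1 were well above background on both arrays of passage 2 alone, which let them into the test. With genes well above background on all 4 arrays, 6 of 42 were lower, and the share of all genes there is not given here. Changes lay below 0 for 28 of the 46 genes, against 39.4% of all genes. Without the fold minimum, 10 were lower and 1 was higher (11.9% and 13.4% of all genes), and at an unadjusted p under 0.05 in limma 18 were lower and 7 higher (17.4% and 24.2% of all genes). Both passage 7 arrays lay below both passage 2 arrays for 23 of the 46 genes and above them for 10, against 27.8% and 40.7% of all genes. The median change of the 46 genes was -0.28, against 0.20 over all genes. Changes of single genes include that general shift, and medians of gene groups are given relative to it.

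The 9 genes that fell came from 5 of the 6 roles: the ligands Wnt4, Wnt6 and Wnt11, the receptor Ror2, the antagonists Wif1 and Dkk1, Rspo1 and Lgr4 of the R-spondin branch, and the feedback regulator Axin2. No nuclear effector was called. Wif1, Wnt11 and Ror2 were called with any 1 array left out. With the passage 7 replicate 1 array left out these were the 3 genes called of the 46, and 6 were called in the absence of the passage 7 replicate 2 array. The same 3 were called with the replicate number as a block. With the planned normexp background correction limma called none of 13847 genes (664 had an unadjusted p under 0.05), and Wif1, Dkk1, Wnt6 and Wnt11 had changes above 0 there (0.86, 1.77, 1.35 and 0.29). The median change of all genes was 0.49 under that correction, so Wnt11 still lay below it.

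**Figure D1:**
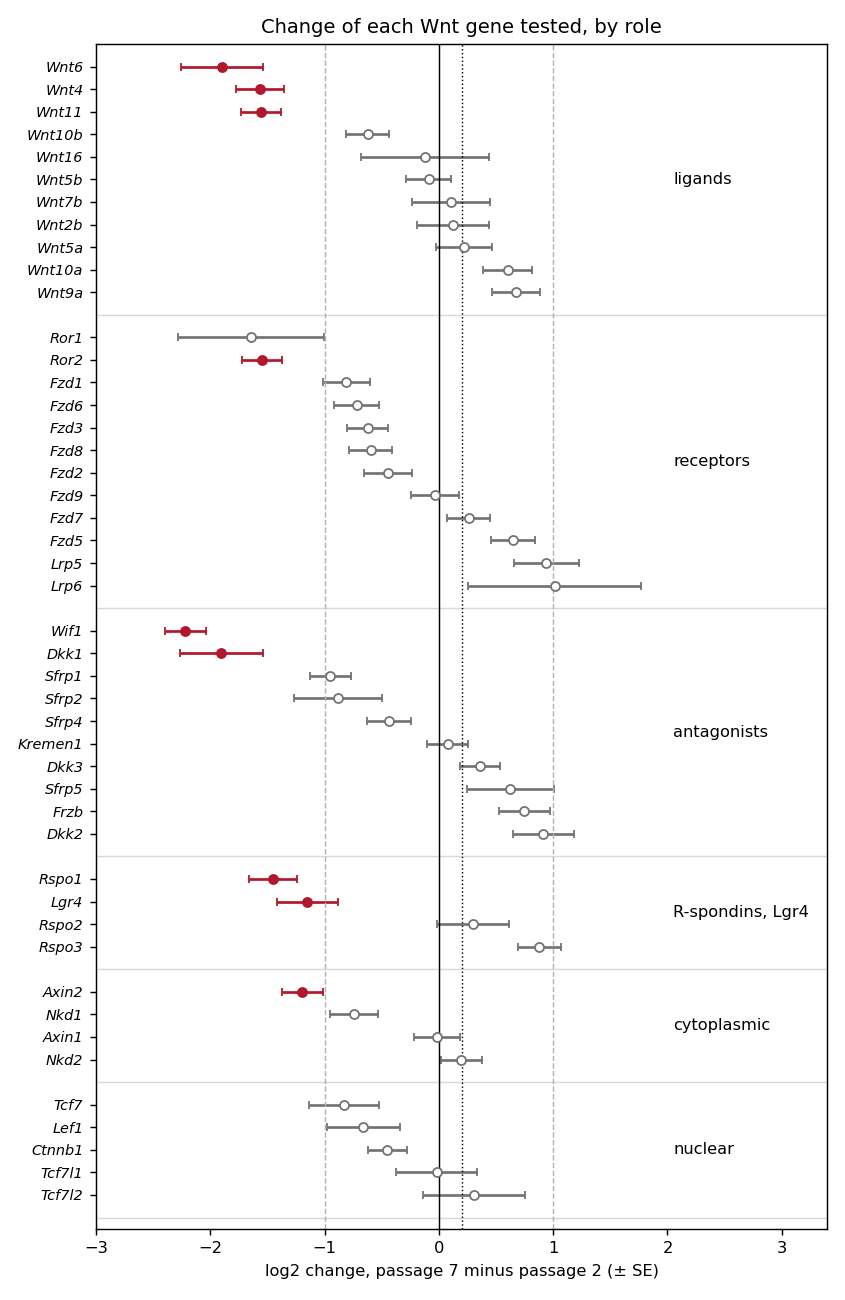
The horizontal axis gives the log2 change (passage 7 minus passage 2) of each of the 46 Wnt genes tested, with bars of 1 SE from limma, grouped by role. Filled red points are the 9 genes called lower, the dashed lines mark a 2-fold change, and the dotted line marks the median of all genes at 0.20. In all, 32 of the 46 points lie left of the dotted line.

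**Figure D2:**
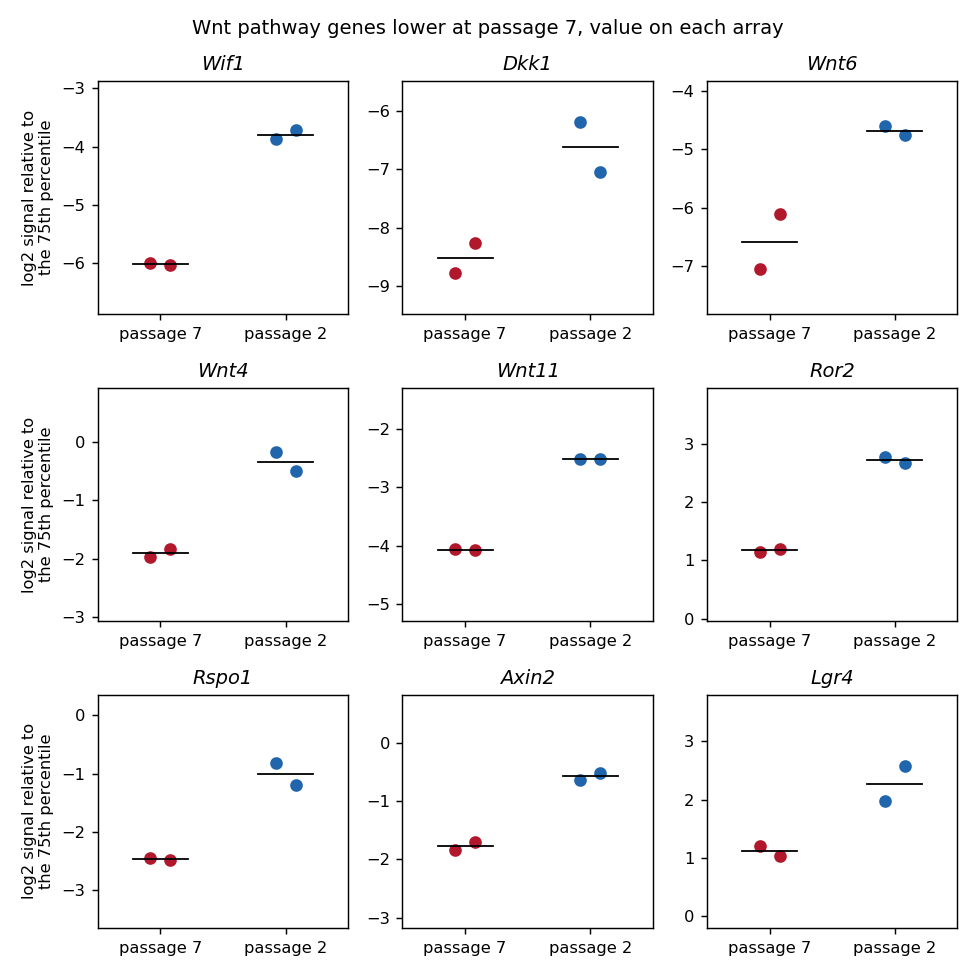
Each panel shows 1 of the 9 Wnt genes called lower, with the level on each of the 2 passage 7 arrays (red) and the 2 passage 2 arrays (blue) as log2 signal less the array's 75th percentile. Black bars are means. In every panel both passage 7 points lie below both passage 2 points, and all panels span 4 log2 units.

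The promoters of the genes that fell were read for the letters that TCF and LEF factors recognise, because these factors carry the beta-catenin signal to DNA. RefSeq promoter windows of GRCm38.p6, which run from 250 bases before to 50 bases after a start site, were at hand for all 9 genes (10 windows, with 2 starts for Wnt11). The letters searched, on either strand, were CTTTGAA and its variants ending otherwise, namely CTTTGAT, then CTTTGTA, and finally CTTTGTT, which cannot overlap on 1 strand. In all, 33 of the 49 genes matched a window (42 windows), and the letters occurred in 6 of these (14.3%). They occurred in 2 of the 10 windows of the genes that fell, those of Dkk1 and of 1 of the starts of Wnt11, and in 16.9% of all 32851 windows of the same length. The 2 windows that hold them are shown with that of Axin2, the usual readout gene of the pathway, whose window holds none of these letters. Capitals mark the matches, which begin at bases 134 and 153 of the Dkk1 window and at base 200 of the Wnt11 window. The Dkk1 window is at chr19:30549447-30549746 on the minus strand, the Wnt11 window at chr7:98834862-98835161 on the plus strand and the Axin2 window at chr11:108920099-108920398 on the plus strand. A match is a description of the sequence and does not show that a factor binds there. Sequence outside these windows was not searched, so a window without a match does not show that the gene lacks such letters elsewhere.
Dkk1: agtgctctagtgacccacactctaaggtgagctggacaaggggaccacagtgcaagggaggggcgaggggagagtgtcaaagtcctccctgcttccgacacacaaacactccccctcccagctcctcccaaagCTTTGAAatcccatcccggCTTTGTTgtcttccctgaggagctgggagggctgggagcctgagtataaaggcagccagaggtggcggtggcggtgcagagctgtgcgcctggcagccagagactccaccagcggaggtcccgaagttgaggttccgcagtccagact
Wnt11: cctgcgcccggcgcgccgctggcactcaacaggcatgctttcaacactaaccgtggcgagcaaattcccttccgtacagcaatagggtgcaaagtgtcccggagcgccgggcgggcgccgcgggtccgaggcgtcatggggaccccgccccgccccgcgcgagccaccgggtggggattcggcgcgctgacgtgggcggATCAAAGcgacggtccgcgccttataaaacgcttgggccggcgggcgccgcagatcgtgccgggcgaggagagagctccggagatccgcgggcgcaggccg
Axin2: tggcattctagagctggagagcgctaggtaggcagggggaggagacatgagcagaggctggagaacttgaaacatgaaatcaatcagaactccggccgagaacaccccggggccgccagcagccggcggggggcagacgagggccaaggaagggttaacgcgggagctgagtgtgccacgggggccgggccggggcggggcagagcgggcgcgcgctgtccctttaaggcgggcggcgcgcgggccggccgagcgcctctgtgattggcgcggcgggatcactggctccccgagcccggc

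Among the ligands, 3 of 11 tested fell and none rose, against 9.42% and 9.99% of all genes, and the median of the group was -0.29 relative to all genes. Wnt4, which is needed for kidney tubules and the female reproductive tract, had levels of -1.97 and -1.83 on the passage 7 arrays, against -0.17 and -0.50 on the passage 2 arrays. It fell by 1.56 ± 0.21 on the log2 scale (2.96-fold lower, SE, adjusted p = 0.012 in limma), and its other probe changed by -1.45. The groups stood well apart, although the call was lost without the passage 7 replicate 1 array (adjusted p = 0.055). Wnt11, which acts mainly through the branch without beta-catenin, had levels of -4.06 and -4.08 on the passage 7 arrays, against -2.51 and -2.52 on the passage 2 arrays. It fell by 1.56 ± 0.17 on the log2 scale (2.94-fold lower, SE, adjusted p = 0.0092 in limma), and the arrays of each passage were almost level with each other. Wnt6 was close to background, with levels of -7.06 and -6.11 on the passage 7 arrays, against -4.60 and -4.76 on the passage 2 arrays, and of the 2 passage 7 arrays only replicate 1 read it well above background. It fell by 1.90 ± 0.36 on the log2 scale (3.73-fold lower, SE, adjusted p = 0.025 in limma). Its other probe, which was not well above background on either passage 7 array, was at least 2.29-fold lower. The call of Wnt6 was lost without either passage 2 array (adjusted p = 0.073 and 0.083) or when passage 7 replicate 1 was dropped (adjusted p = 0.058), with dim probes kept in (adjusted p = 0.059) and in the authors' deposited value table, refitted here (-0.87).

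The other ligands did not pass. Wnt9a, a ligand of developing joints, had levels of 1.60 and 1.57 on the passage 7 arrays, against 1.1 and 0.73 on the passage 2 arrays. Its change was 0.67 ± 0.21 (SE, adjusted p = 0.079), and both passage 7 arrays were the higher ones. Wnt10a, known from teeth, hair and skin glands, had levels of 0.87 and 1.03 on the passage 7 arrays, against 0.52 and 0.17 on the passage 2 arrays. Its change was 0.60 ± 0.21 (SE, adjusted p = 0.10), again with no overlap between the passages. Wnt10b, a ligand that favours bone over fat, lay the other way, with levels of -4.69 and -4.58 on the passage 7 arrays, against -3.91 and -4.11 on the passage 2 arrays, and a change of -0.62 ± 0.19 (SE, adjusted p = 0.073). Wnt5a, the best known ligand of the branch without beta-catenin, had levels of 1.12 and 1.06 on the passage 7 arrays, against 0.60 and 1.15 on the passage 2 arrays, which overlap. Its change of 0.22 ± 0.25 (SE, adjusted p = 0.54) was close to the shift of all genes. Wnt5b, Wnt16, Wnt7b and Wnt2b also overlapped between the passages, with changes of -0.090, -0.12, 0.11 and 0.12 (adjusted p from 0.75 to 0.89). Wnt16 differed between the arrays of a passage more than between passages, at -2.41 and -3.50 on the passage 7 arrays, against -2.22 and -3.44 on the passage 2 arrays. Wnt2 was well above background on the replicate 1 array of each passage alone and was not tested; its levels were -5.79 and -7.49 on the passage 7 arrays, against -6.69 and -8.32 on the passage 2 arrays.

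Of the 12 receptors and coreceptors tested, 1 fell (8.33%) and none rose, against 9.42% and 9.99% of all genes. The share lower was thus near that of all genes. Their median lay at -0.72 against all genes. The gene that fell was Ror2, a receptor tyrosine kinase that binds Wnt5a and is known from limb and skeletal development, with levels of 1.15 and 1.20 on the passage 7 arrays, against 2.77 and 2.67 on the passage 2 arrays. It fell by 1.55 ± 0.18 on the log2 scale (2.92-fold lower, SE, adjusted p = 0.0095 in limma), and its other probe changed by -1.56. Its call was made under every alternative except the planned normexp correction. Ror1, its close relative, had levels of -5.36 and -6.10 on the passage 7 arrays, against -3.22 and -4.95 on the passage 2 arrays. The passages did not overlap, but the passage 2 arrays lay far apart, and the change of -1.64 ± 0.64 (SE) did not pass (adjusted p = 0.13). It was called when passage 2 replicate 2 was dropped (-2.51, adjusted p = 0.046), with median scaling (-1.81) and in the authors' deposited value table, refitted here (-1.05), while under the planned normexp correction its change was 1.11.

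Of the Frizzleds, the receptors that bind Wnt directly, none passed, and the tested members divided in direction. Fzd1 had levels of 1.53 and 1.42 on the passage 7 arrays, against 2.12 and 2.45 on the passage 2 arrays. Its change was -0.81 ± 0.21 (SE) with an adjusted p of 0.0501, and its other probe changed by -0.87. It was called lower with normexp and quantile normalisation (-1.08) and in the authors' deposited value table, refitted here (-1.19). Fzd6 had levels of -0.13 and -0.077 on the passage 7 arrays, against 0.48 and 0.75 on the passage 2 arrays, and a change of -0.72 ± 0.19 (SE, adjusted p = 0.057). Fzd3, Fzd8 and Fzd2 had changes of -0.62, -0.60 and -0.45 (adjusted p = 0.066, 0.083 and 0.18). At the probe used for each of these 5 genes both passage 7 arrays lay below both passage 2 arrays, as for 27.8% of all genes. The other probe of Fzd2 changed by -0.23 and overlapped between the passages. Fzd5 lay the other way, with levels of 2.23 and 2.32 on the passage 7 arrays, against 1.51 and 1.75 on the passage 2 arrays, and a change of 0.65 ± 0.19 (SE, adjusted p = 0.07). Fzd7 had a change of 0.26 and Fzd9 one of -0.036 (adjusted p = 0.35 and 0.91). The other probe of Fzd7 changed by 0.66 and was not called (adjusted p over all probes = 0.098 in limma). Fzd4 was well above background on 1 array, of passage 2, and was not tested. Its levels were -9.45 and -8.32 on the passage 7 arrays, against -8.00 and -7.38 on the passage 2 arrays. Its other probe was not well above background on any array.

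The coreceptors of the beta-catenin branch did not pass. Lrp5 had levels of 1.22 and 1.71 on the passage 7 arrays, against 0.27 and 0.77 on the passage 2 arrays, with both passage 7 arrays above both passage 2 arrays. Its change was 0.94 ± 0.29 (SE), which is 1.92-fold (adjusted p = 0.075). Lrp6 had levels of 1.75 and 1.30 on the passage 7 arrays, against 1.61 and -0.59 on the passage 2 arrays, so that the passage 2 replicate 2 array stood apart from the other 3. Its change was 1.02 ± 0.76 (SE, adjusted p = 0.36). Without the passage 2 replicate 1 array it was called higher, at 2.12 (adjusted p = 0.028). When passage 2 replicate 2 was dropped its change was -0.086 (adjusted p = 0.85), so that its value turns on 1 array.

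Of the 10 antagonists tested, 2 fell and none rose, beside 9.42% and 9.99% of all genes, and their median lay at -0.38 against all genes. This median was 0.31 with the planned normexp correction. It was -0.0078 with genes well above background on all 4 arrays, which leaves out both antagonists that fell. Wif1, which binds Wnt proteins outside the cell, had levels of -6.00 and -6.03 on the passage 7 arrays, against -3.88 and -3.72 on the passage 2 arrays. It fell by 2.22 ± 0.18 on the log2 scale (4.65-fold lower, SE, adjusted p = 0.0058 in limma), and 1 of the 2 passage 7 arrays read it well above background. Dkk1, which blocks the coreceptors Lrp5 and Lrp6, was near background, with levels of -8.78 and -8.27 on the passage 7 arrays, against -6.20 and -7.04 on the passage 2 arrays. Both passage 2 arrays read it well above background and neither passage 7 array did. Its fitted change was -1.90 ± 0.37 (SE, adjusted p = 0.026), but the lowest signal well above background on the passage 7 arrays leaves no bound above 1-fold, so no fold change is given. Its call was lost without the passage 7 replicate 1 array (adjusted p = 0.07), in the authors' deposited value table, refitted here (-0.44), with dim probes kept in (adjusted p = 0.06) and with a variance trend (adjusted p = 0.051).

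Sfrp1 and Sfrp2, secreted proteins with a Frizzled-like domain, lay lower at passage 7 without being called. Sfrp1 had levels of 2.47 and 2.59 on the passage 7 arrays, against 3.43 and 3.53 on the passage 2 arrays. Its change of -0.95 ± 0.18 (SE) had an adjusted p of 0.025 but was 1.93-fold, just under the 2-fold minimum, and its other probe changed by -0.96. It passed with median scaling (-1.12), after quantile normalisation (-1.25) and in the authors' deposited value table, refitted here (-1.21). Sfrp2 had 5 probes, the most of any gene here. The probe used for the gene had levels of 0.098 and 0.54 on the passage 7 arrays, against 0.73 and 1.67 on the passage 2 arrays, and a change of -0.88 ± 0.38 (SE, adjusted p = 0.15). Its 4 other probes changed by -1.77, -1.71, -1.24 and -1.04, with adjusted p-values over all probes of 0.019, 0.023, 0.0497 and 0.095. With the mean of its probes the gene was called lower (-1.33, adjusted p = 0.03). It was also called when passage 2 replicate 1 was dropped (-1.35), with median scaling (-1.05) and in the authors' deposited value table, refitted here (-1.15).

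The remaining antagonists did not pass. Dkk2 had levels of 2.00 and 1.87 on the passage 7 arrays, against 0.71 and 1.33 on the passage 2 arrays, and a change of 0.91 ± 0.27 (SE, adjusted p = 0.07), with both passage 7 arrays higher. It was called higher without the passage 2 replicate 2 array (1.23, adjusted p = 0.044). Frzb, a secreted Frizzled-related protein first known from cartilage, had levels of -2.13 and -2.24 on the passage 7 arrays, against -3.14 and -2.73 on the passage 2 arrays, and a change of 0.75 ± 0.22 (SE, adjusted p = 0.07), while its other probe changed by 0.056. Dkk3, a divergent Dkk protein, had levels of 4.93 and 4.84 on the passage 7 arrays, against 4.56 and 4.49 on the passage 2 arrays, a narrow gap without overlap, and a change of 0.36 ± 0.18 (SE, adjusted p = 0.20). Sfrp4, Sfrp5 and Kremen1 had changes of -0.44, 0.62 and 0.077 (adjusted p = 0.16, 0.28 and 0.77).

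The R-spondin branch held genes with changes of both signs. Of the 4 tested, 2 fell and none was called higher, beside 9.42% and 9.99% of all genes, and their median lay at -0.63 against all genes. Rspo1, a secreted amplifier of Wnt signalling, had levels of -2.45 and -2.47 on the passage 7 arrays, against -0.82 and -1.20 on the passage 2 arrays. It fell by 1.45 ± 0.21 on the log2 scale (2.74-fold lower, SE, adjusted p = 0.015 in limma), and its other probes changed by -1.42 and -1.46. Lgr4, a receptor through which R-spondins act, had levels of 1.21 and 1.03 on the passage 7 arrays, against 1.98 and 2.57 on the passage 2 arrays. It fell by 1.15 ± 0.27 on the log2 scale (2.22-fold lower, SE, adjusted p = 0.04 in limma), and its other probes changed by -1.25 and -0.98. Rspo1 was no longer called once either passage 7 array was dropped (adjusted p = 0.06 and 0.069). So was Lgr4 (adjusted p = 0.10 and 0.17), which also lost its call when passage 2 replicate 2 was dropped (adjusted p = 0.073). Rspo3 lay the other way, with levels of 2.30 and 2.07 on the passage 7 arrays, against 1.28 and 1.33 on the passage 2 arrays. Its change of 0.88 ± 0.19 (SE) had an adjusted p of 0.033 but was 1.84-fold, under the minimum, and it was the only one of the 46 genes with a higher level at an adjusted p under 0.05. Rspo2 overlapped between the passages, with a change of 0.30 (adjusted p = 0.51). The related receptors Lgr5 and Lgr6, outside this set, were not called in limma (-0.082 and -0.42, adjusted p = 0.74 and 0.15).

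Of the cytoplasmic regulators, 1 of 4 fell and none rose, beside 9.42% and 9.99% of all genes, and their median lay at -0.58 against all genes. Axin2, a scaffold of the complex that destroys beta-catenin and itself a target that Wnt signalling switches on, had levels of -1.84 and -1.71 on the passage 7 arrays, against -0.64 and -0.52 on the passage 2 arrays. It fell by 1.20 ± 0.18 on the log2 scale (2.29-fold lower, SE, adjusted p = 0.016 in limma). Its other probe changed by -1.02 and was not called (adjusted p over all probes = 0.074). The call was lost in 7 of 18 alternatives. These were dropping either passage 7 array, the replicate block, the use of its other probe and every alternative with normexp. Axin1, the scaffold that is made at all times, had levels of 2.51 and 2.24 on the passage 7 arrays, against 2.47 and 2.31 on the passage 2 arrays, and a change of -0.017 ± 0.20 (SE, adjusted p = 0.96). Nkd1 and Nkd2 bind the transducer Dishevelled and restrain the pathway. Nkd1 had levels of -4.70 and -4.35 on the passage 7 arrays, against -3.86 and -3.71 on the passage 2 arrays, and a change of -0.74 ± 0.21 (SE, adjusted p = 0.065). Its other probe changed by -1.49 (adjusted p over all probes = 0.025), and with the mean of both probes the gene was called lower (-1.12, adjusted p = 0.018). Nkd2 had a change of 0.20 (adjusted p = 0.46), close to the shift of all genes.

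None of the 5 nuclear effectors was called in limma, where 2 were lower and 0 higher at an unadjusted p under 0.05 (17.4% and 24.2% of all genes), and their median was -0.65 relative to all genes. Ctnnb1, which encodes beta-catenin, had levels of 5.43 and 5.45 on the passage 7 arrays, against 5.90 and 5.88 on the passage 2 arrays. Its arrays were nearly level within each passage and the passages did not overlap, but the change of -0.45 ± 0.17 (SE) did not pass (adjusted p = 0.12). It was called lower with quantile normalisation (-1.06, adjusted p = 0.026). Tcf7, which encodes the factor TCF1, had levels of -4.50 and -4.95 on the passage 7 arrays, against -4.21 and -3.58 on the passage 2 arrays, and a change of -0.83 ± 0.31 (SE, adjusted p = 0.11). Lef1 had levels of -4.51 and -4.30 on the passage 7 arrays, against -3.35 and -4.14 on the passage 2 arrays, and a change of -0.66 ± 0.32 (SE, adjusted p = 0.19), and its other probes changed by -0.79 and -0.78. Both genes are also targets of the pathway in other cells, and for both the passages did not overlap. Tcf7l1, mostly a repressor, and Tcf7l2 overlapped between the passages, with changes of -0.017 and 0.31 (adjusted p = 0.98 and 0.63), and the passage 2 arrays of each lay further apart than the passage 7 arrays.

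Read probe by probe, 85 of the 88 probes could be tested, and 18 were called lower and none higher, against 8.53% and 8.72% of all 30868 probes tested. They belong to 11 genes, since other probes of Sfrp2 and Nkd1 passed while the probe used for the gene did not. The probe used for Lgr4 had an adjusted p of 0.0543 over all probes, and 1 of its other probes passed. Of the 29 Wnt genes with several probes, 24 had 1 direction at every probe. All 6 called genes with several probes did, while Wif1, Dkk1 and Wnt11 have 1 probe each.

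**Figure D3:**
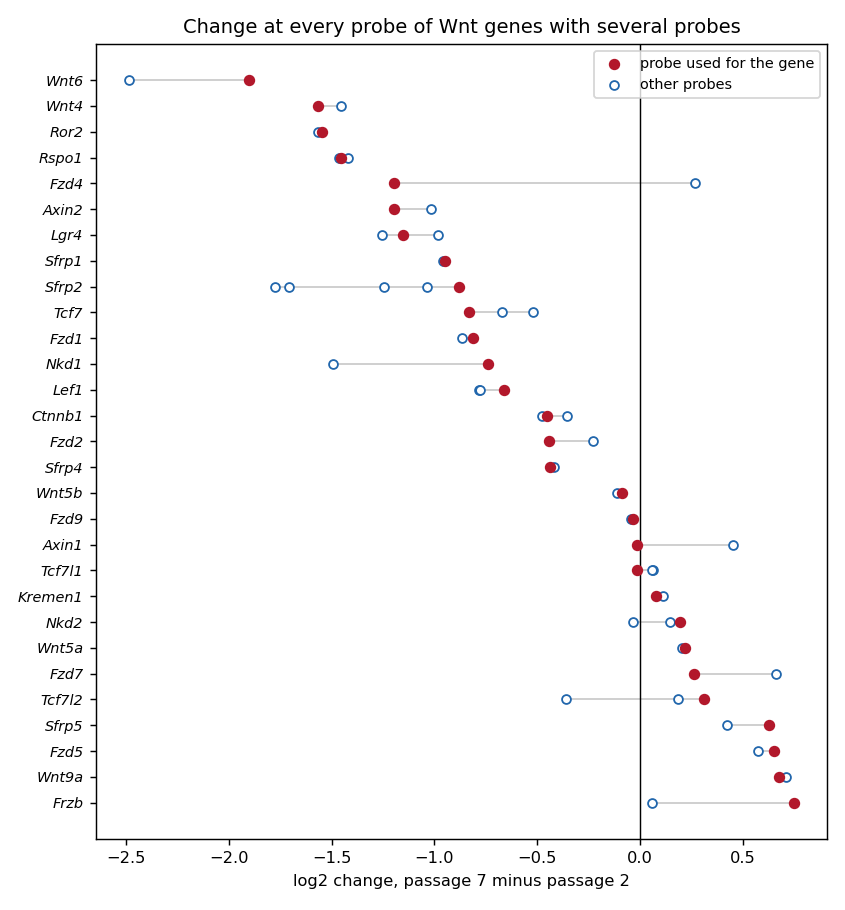
Each row is 1 of the 29 Wnt genes with several probes, and the horizontal axis is the log2 change (passage 7 minus passage 2) at each probe, tested or not. Red points are the probes used for the gene and open points the others. The widest gaps between the probes of a gene are those of Fzd4 (1.46, not tested), Sfrp2 (0.89) and Nkd1 (0.75).

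The wider pathway was read from lists of further Wnt genes. They listed 157 genes, of which 149 had a probe. Of 142 tested, 15 fell and 9 rose, against 9.42% and 9.99% of all genes, and their median was -0.11 relative to all genes. The falls among genes that act outside the cell or at its surface were 5 of 20 with no rise. Cthrc1, a secreted protein that helps Wnt bind Frizzled and Ror2, had levels of 1.66 and 1.82 on the passage 7 arrays, against 4.65 and 4.62 on the passage 2 arrays. It fell by 2.90 ± 0.18 on the log2 scale (7.45-fold lower, SE, adjusted p = 0.005 in limma). Sostdc1, a secreted antagonist of Wnt and BMP proteins, fell by 2.75 ± 0.21 on the log2 scale (6.75-fold lower, SE, adjusted p = 0.0054 in limma), and 1 of the 2 passage 7 arrays read it well above background. Gpc3, Trabd2b and Apcdd1 were the other genes that fell.

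Further inside the cell the counts were as follows, beside the same 9.42% lower and 9.99% higher over all genes. Of 32 genes of the destruction complex and the transducers, 2 fell and none rose, namely Amer1, a membrane anchor of the complex (-1.18 ± 0.18, adjusted p = 0.016), and the corepressor Ctbp2 (-1.04 ± 0.19, adjusted p = 0.023). Of 20 nuclear cofactors, Tle5, a short member of the Groucho corepressor family, rose by 1.88 ± 0.19 (adjusted p = 0.008) and the histone demethylase Kdm2b had a change of -1.04 ± 0.19 (adjusted p = 0.023). Of 35 genes of the planar polarity and calcium branches, 3 rose and 1 fell. Camk2a, a kinase of the calcium branch, rose by 1.37 ± 0.18 (adjusted p = 0.012) and Rock2, a kinase that contracts the actin skeleton, by 1.25 ± 0.20 (adjusted p = 0.018), while Vangl1, a polarity protein, had a change of -1.30 ± 0.31 (adjusted p = 0.044).

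Genes listed as targets of beta-catenin in other cells were called in both directions, with 7 of 40 lower and 5 higher, against 9.42% and 9.99% of all genes. Tnfrsf19, a receptor of the TNF family, had levels of -6.05 and -5.51 on the passage 7 arrays, against -2.55 and -2.09 on the passage 2 arrays. It fell by 3.46 ± 0.29 on the log2 scale (11-fold lower, SE, adjusted p = 0.0059 in limma). Birc5, the mitotic protein survivin, fell by 2.27 ± 0.18 on the log2 scale (4.83-fold lower, SE, adjusted p = 0.0055 in limma), and it also belongs to the proliferation genes. Fgf9, a growth factor, rose by 1.60 ± 0.27 and Msx2, a homeobox factor of limb and skull, by 1.45 ± 0.23 (adjusted p = 0.021 and 0.017). Ccnd1, which encodes cyclin D1, was 2.16-fold higher (1.11 ± 0.18, adjusted p = 0.017), and was chosen for mention after its value was seen.

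Markers of the labelled cell type were present. All 12 fibroblast markers matched were well above background on all 4 arrays, and 2 of them fell, of which Lum, the matrix proteoglycan lumican, fell most (-3.0 ± 0.20, adjusted p = 0.0051). Markers of other cell types and of dividing cells changed between the same passages, and their counts stand beside 9.42% of all genes lower and 9.99% higher. Of 9 cartilage and bone markers 6 fell and none rose, and their summed signal, in multiples of the 75th percentile, was 5.33 to 5.5 at passage 7, against 35.5 to 36.9 at passage 2. The cartilage collagen Col9a1 was not well above background at passage 7 and was at least 10.2-fold lower (adjusted p = 0.006). Of 12 proliferation genes 11 fell, led by Ccna2 (-3.46 ± 0.21, adjusted p = 0.005), with a summed signal of 20.2 to 20.5 at passage 7, against 90.8 to 101 at passage 2. Of 7 macrophage markers 4 fell, led by Mrc1 (-2.63 ± 0.19, adjusted p = 0.0052), with a summed signal of 1.65 to 1.95 at passage 7, against 3.02 to 3.78 at passage 2. Adipocyte markers were mixed, with 3 of 6 lower and 1 higher, and so were epithelial markers, with 3 of 11 lower and 3 higher. The adipocyte sum was 5.40 to 5.83 at passage 7, against 29.0 to 41.0 at passage 2, with the largest called changes at Dlk1 (-4.51) and Fabp4 (2.14). The epithelial sum was 3.68 to 4.27 at passage 7, against 1.44 to 2.12 at passage 2, with the largest called changes at Krt14 (-2.33) and Ivl (5.94). Muscle markers had 2 of 10 lower and 1 higher, endothelial markers 1 of 9 higher, and neural markers 1 of 8 lower and 1 higher. Those higher were Acta1 (1.25), Emcn (2.06) and Map2 (1.25), and those lower were Des (-2.65), Myh3 and Ngfr (-1.69). Myh3 was not well above background at passage 7 and was at least 8.70-fold lower (adjusted p = 0.023 in limma). The muscle sum was 21.5 to 23.5 at passage 7, against 8.57 to 12.1 at passage 2. It is mostly the signal of Acta1, the only muscle marker above the 75th percentile, with levels of 4.40 and 4.53 at passage 7, against 3.47 and 2.96 at passage 2. In the same order, sums were 3.77 to 3.86 against 2.31 to 3.48 for endothelial markers. They were 33.9 to 36.4 against 21.4 to 27.3 for neural markers and 724 to 1068 against 473 to 571 for fibroblast markers. Each sum leans on the brightest markers of its list, Ncam1 for the neural and S100a4 for the fibroblast list, and does not describe the other members. In pooled cultures fewer cells of a type and less RNA per cell cannot be told apart, and the part of these markers in the changes of the Wnt genes was not tested.

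**Figure D4:**
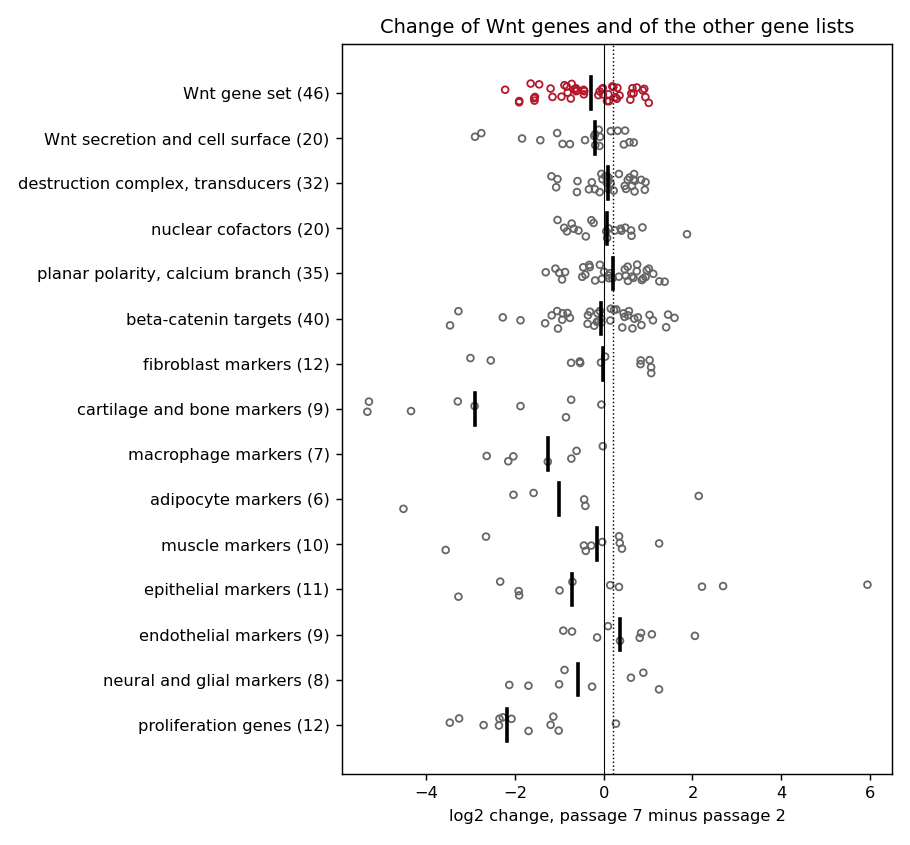
Each circle is 1 gene, placed by its log2 change (passage 7 minus passage 2), for the 46 Wnt genes (red) and for the other lists, with the number tested in brackets; black bars are medians and the dotted line is the median of all genes at 0.20. The bar of the Wnt genes lies at -0.28, those of the cartilage and bone markers and of the proliferation genes at -2.91 and -2.17.

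**Figure D5:**
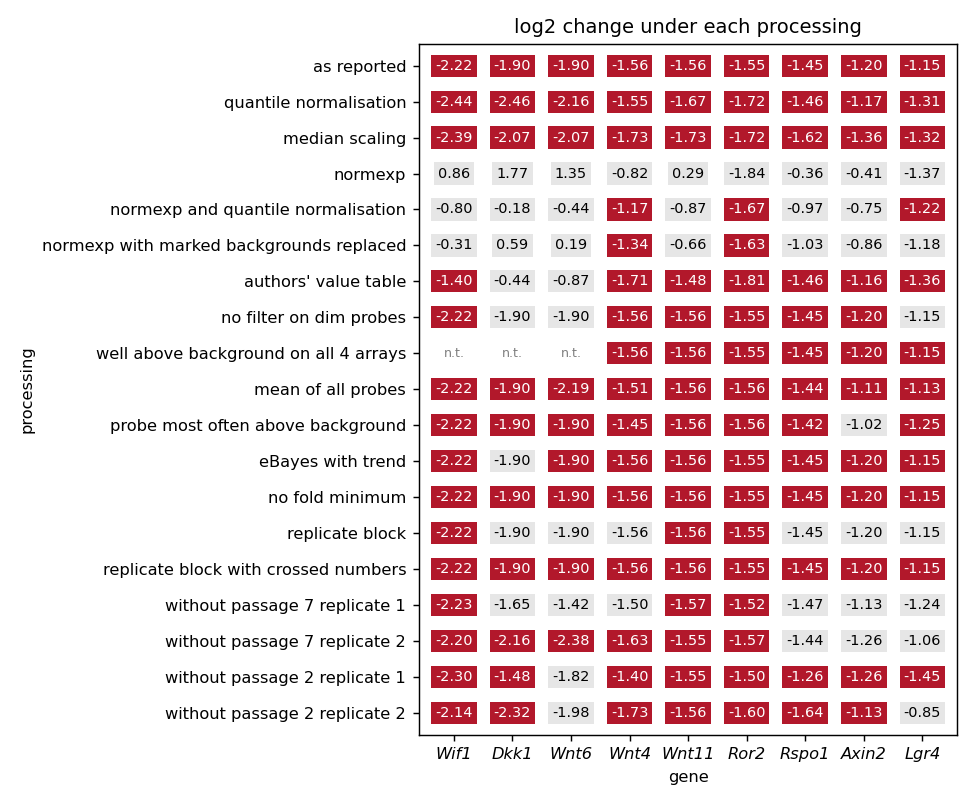
Rows are processing alternatives and columns the 9 Wnt genes called lower, and each cell prints the log2 change (passage 7 minus passage 2). Red cells are called in the same direction, grey cells are not called, and n.t. marks genes not tested there. Ror2 is called in all rows but the planned normexp correction, while Wif1, Dkk1, Wnt6 and Wnt11 have changes above 0 under that correction (and Dkk1 and Wnt6 also with marked backgrounds replaced).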

How the data were processed

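Cy3-labelled RNA from 0.5 micrograms of total RNA was hybridised to 1-colour Agilent arrays, per the labels' protocols, 2 arrays at passage 7 and 2 at passage 2. Per the file headers, Agilent Feature Extraction 10.5.1.1 made the deposited spot files, whose processed signal intensity is background-subtracted. The authors deposited a log2 value table as well; limma, without a version, is the one tool in the submitters' processing notes, and the table's centring and background treatment are unknown here. Its columns tracked the median intensity (log2) of their own arrays most closely, with r of at least 0.9986.

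Probes were named by RefSeq accession through GRCm38.p6 tables (31089 of 43553 probes); the design's build is another, so coordinates are given only for the RefSeq promoter windows, on GRCm38.p6. Each array's 75th percentile was subtracted from its log2 processed signals, outlier spots (14 to 61 per array) left out, spots of a probe averaged, and the probe with the highest mean used for a gene. Genes that both arrays of 1 passage or more read well above background entered limma 3.58.1 under R 4.3.3, with Benjamini-Hochberg adjustment; no Wnt gene lacked an array. Probes were fitted likewise over all probes, with adjusted p-values over those. The script was tested on simulated data.

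The share of spots well above background was 70.6% and 65.8% at passage 7 and 71.9% and 72.7% at passage 2, no spot was saturated, and the number of arrays limits precision. A robust SD between arrays, taken from the median absolute deviation of replicate differences across genes, was 0.19 at passage 7 and 0.33 at passage 2. It leaves out any shift common to all genes and gives little weight to genes that differ most. Members and lists were chosen with earlier results of these data known. The rule named all members, up to 2 rises and 2 falls per further Wnt list and the extremes of marker lists. Des was named beyond that rule. Alternatives changed background correction, normalisation, filter, probe choice, variance trend, fold minimum and replicate block, and left out each array. Normexp was run on median spot signals in place of the mean signals planned, for which no column was at hand. Its version with marked backgrounds replaced and the block with crossed numbers were added after the data were seen. A bound sets the brighter passage's mean against the dimmer arrays' detection limit, or their own signal where that is higher.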

Additional observations from a re-analysis of the deposited data

How the results depend on the processing

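The count of Wnt genes lower, 9 of 46, ranged from 0 to 12 over 18 alternatives, and that of Wnt genes higher from 0 to 1. The medians below are relative to all genes. With quantile normalisation, 5 further pathway genes were higher and the medians were -0.092 for ligands, -0.58 for receptors and -0.87 for nuclear effectors. Here the sign turned for Wnt7b (-0.036), Fzd7 (-0.021), Dkk3 (-0.20) and Kremen1 (-0.010). With median scaling, 25 further pathway genes were lower. The sign turned in this setting for Wnt2b (-0.048), Wnt7b (-0.063) and Kremen1 (-0.092). This scaling lowers all changes by the same amount, which alone turns these signs. With the planned normexp correction, 0 genes were called, 0 Wnt genes were lower, 0 further pathway genes were higher, 0 further pathway genes were lower and the medians were -0.15 for receptors, 0.31 for antagonists and -0.32 for cytoplasmic regulators. Changes of opposite sign were those of Wnt6 (1.35), Wnt10b (1.27), Wnt11 (0.29), Wnt16 (1.1), Fzd3 (1.16), Fzd7 (-0.066), Fzd8 (0.44), Fzd9 (1.08), Ror1 (1.11), Sfrp4 (0.52), Dkk1 (1.77), Dkk3 (-0.11), Wif1 (0.86), Nkd1 (0.97), Lef1 (1.11), Tcf7 (1.12) and Tcf7l2 (-0.043). With normexp and quantile normalisation, 1266 genes were called, 4 further pathway genes were higher, 8 further pathway genes were lower and the medians were -0.13 for ligands, -0.33 for receptors, -0.19 for antagonists, -0.35 for the R-spondin branch, -0.25 for cytoplasmic regulators and -0.37 for nuclear effectors. Genes of opposite sign were Dkk3 (-0.19), Kremen1 (-0.086) and Tcf7l1 (0.024). With normexp and marked backgrounds replaced, 1203 genes were called, 2 Wnt genes were lower, 4 further pathway genes were higher, 4 further pathway genes were lower and the medians were -0.29 for receptors, -0.11 for antagonists, -0.34 for cytoplasmic regulators and -0.27 for nuclear effectors. Here the sign turned for Wnt6 (0.19), Wnt10b (0.18), Wnt16 (0.21), Fzd3 (0.19), Fzd9 (0.20), Dkk1 (0.59), Axin1 (0.076), Nkd1 (0.0014), Lef1 (0.11), Tcf7 (0.072) and Tcf7l1 (0.10). In the authors' deposited value table, 4 further pathway genes were higher and the medians were -0.48 for receptors, -0.29 for antagonists and -0.38 for cytoplasmic regulators. The sign turned in this setting for Wnt2b (-0.083), Wnt7b (-0.12) and Kremen1 (-0.27). Without a filter on dim probes, 1771 genes were called, 7 further pathway genes were lower and the medians were -0.93 for receptors, -0.51 for antagonists and -0.71 for cytoplasmic regulators. With genes well above background on all 4 arrays, the medians were -0.67 for receptors and -0.0078 for antagonists. With the mean of all probes, the medians were -0.66 for receptors and -0.69 for cytoplasmic regulators. Here the sign turned for Axin1 (0.22) and Tcf7l1 (0.033). With the probe most often above background (the dimmest one where probes tied), the medians were -0.60 for receptors and -0.71 for cytoplasmic regulators. The sign turned in this setting for Axin1 (0.45), Nkd2 (-0.033), Tcf7l1 (0.060) and Tcf7l2 (-0.36). Without the fold minimum, 1 Wnt gene was higher and 15 further pathway genes were higher. With the replicate number as a block, 1173 genes were called, 3 Wnt genes were lower, 3 further pathway genes were higher and 6 further pathway genes were lower. With 1 array left out, the ranges were 1152 to 3458 for called genes, 0 to 1 for Wnt genes higher, 3 to 10 for Wnt genes lower, 2 to 17 for further pathway genes higher, 5 to 19 for further pathway genes lower, -0.77 to -0.62 for the median of receptors, -0.50 to -0.23 for the median of antagonists, -0.92 to -0.21 for the median of the R-spondin branch and -0.65 to -0.47 for the median of cytoplasmic regulators. The 3 Wnt genes lower were found without the passage 7 replicate 1 array. Genes whose sign turned had ranges of -0.27 to 0.52 for Wnt2b, -0.051 to 0.49 for Wnt5a, -0.23 to 0.046 for Wnt5b, -0.26 to 0.47 for Wnt7b, -0.73 to 0.49 for Wnt16, -0.17 to 0.099 for Fzd9, -0.086 to 2.12 for Lrp6, -0.034 to 0.63 for Rspo2, -0.16 to 0.12 for Axin1, -0.47 to 0.44 for Tcf7l1 and -0.29 to 0.91 for Tcf7l2. A passage left with 1 array borrows its spread from the other passage. The differences between replicates 1 and 2 of the passages correlated at -0.17 across genes, and no label ties a number to a culture, so the numbers were not taken to pair the arrays. The replicate block moved the count of Wnt genes lower to 3. With the numbers crossed, 3066 genes and 9 Wnt genes were called. The median change of all genes was 0.20, against 0.49 with the planned normexp correction, 0.38 with its marked backgrounds replaced, 0.33 without a filter on dim probes, -0.06 in the authors' value table, 0.03 under median scaling and 0.02 under quantile normalisation, and 51.5% of called genes were higher, against 41.2% with median scaling, 35.3% in the authors' value table and 42.2% with quantile normalisation. Median signal over background was 4.28 and 2.94 at passage 7 and 4.65 and 5.05 at passage 2, which limits what can be said of Dkk1, Wnt6, Wif1 and Ror1. The cause of these shifts was not tested.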
